A study of Mus musculus with 2 samples.

Results

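The 8 genes described here encode the receptors and decoys of the interleukin-1 (IL-1) family: Il1r1, Il1r2, Il1rap, Il1rl1, Il1rl2, Il18r1, Il18rap and Sigirr. They were chosen by family membership, and all 8 were found among the 27998 genes counted. The cells came from the abdominal aorta of wild-type C57BL/6J mice, taken 2 weeks after an injection into the peritoneum. The LCWE group received the cell wall extract of Lactobacillus casei, which gives mice a vasculitis used as a model of Kawasaki disease, and was a pool of 7 aortas. The PBS group received buffer and was a pool of 9 aortas. Each pool was made into 1 single-cell library, so no test of the difference between groups was possible, and mice within a pool cannot be compared. The age of the mice is not given in the sources used here.

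IL-1 family receptors are membrane proteins with immunoglobulin domains outside the cell and, in those that signal, a TIR domain inside it. A ligand-binding chain (Il1r1 for IL-1α and IL-1β, Il1rl1 for IL-33, Il1rl2 for IL-36, Il18r1 for IL-18) recruits an accessory chain, which is Il18rap for IL-18 and Il1rap for the others, and the joined TIR domains bind Myd88 and lead to NF-κB. Il1r2 binds IL-1 but has no TIR domain and acts as a decoy, and Sigirr, which does carry a TIR domain, is known as an inhibitor of these receptors. In the LCWE model, IL-1 signalling is known to be required for the vascular inflammation.

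The LCWE library held 5091 cells and 42275754 UMIs (unique molecular identifiers, 1 per captured RNA molecule), and the PBS library 5386 cells and 62600808 UMIs. The median LCWE cell had 5508 UMIs and the median PBS cell 11252.5, and 8 cell barcodes occurred in both. Cells carry the names that the authors gave them, in 25 fine and 9 broad classes. Of the fine classes, 21 had at least 50 LCWE cells and 3 had at least 50 PBS cells. The smooth muscle class VSMC_1 held 93 of the LCWE cells and 4141 of the PBS cells. Levels are given as UMIs per cell and as CPM, the class's UMIs scaled to a common total, because classes differ in total UMIs per cell. Brackets hold 95% intervals, which cover counting error only and not the differences between mice.

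Class names were read against marker genes. Fibroblasts, VSMC_1, BEC (an endothelial class), LEC (lymphatic endothelium), NK cells, neutrophils and Mac1 (a macrophage class) carried all of their listed markers in the LCWE library. VSMC_2, a class with LCWE cells only, carried fibroblast markers at 403 UMIs per cell beside smooth muscle markers at 239 UMIs per cell. In gd T cells the listed marker Il17a was detected. The class named Eosinophil went against its name. Its 142 LCWE cells held 41 UMIs of Siglecf, 2 of Ccr3 and 0 of Prg2, Epx and Il5ra, but S100a8 at 111 and S100a9 at 119 UMIs per cell, which are granulocyte genes best known from neutrophils. It is called here the class named eosinophil.

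Most of the genes lie side by side. Per the GENCODE vM21 annotation of GRCm38, Il1r2, Il1r1, Il1rl2, Il1rl1, Il18r1 and Il18rap follow each other in that order on the plus strand of chromosome 1, at chr1:40074079-40551705, a stretch of 477627 bases. The closest neighbours are Il1rl1 and Il18r1, with 136 bases between them, and Il1r1 and Il1rl2, with 7352 bases. Il1rap lies on chromosome 16 (chr16:26581704-26730117, plus strand) and Sigirr on chromosome 7 (chr7:141091175-141100572, minus strand). A counted antisense gene, Gm16894, overlaps Il1r2 and held 25 LCWE and 7 PBS UMIs. By UMIs per cell in the LCWE library, Il1r2 was highest in granulocyte and dendritic classes, the neighbours Il1r1 and Il1rl2 both in fibroblasts, Il1rl1 in the class of regulatory and activated CD4 T cells and Il18r1 in gd T cells. Il18rap was highest in neutrophils by UMIs per cell and in NK cells by CPM.

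**Figure D1:**
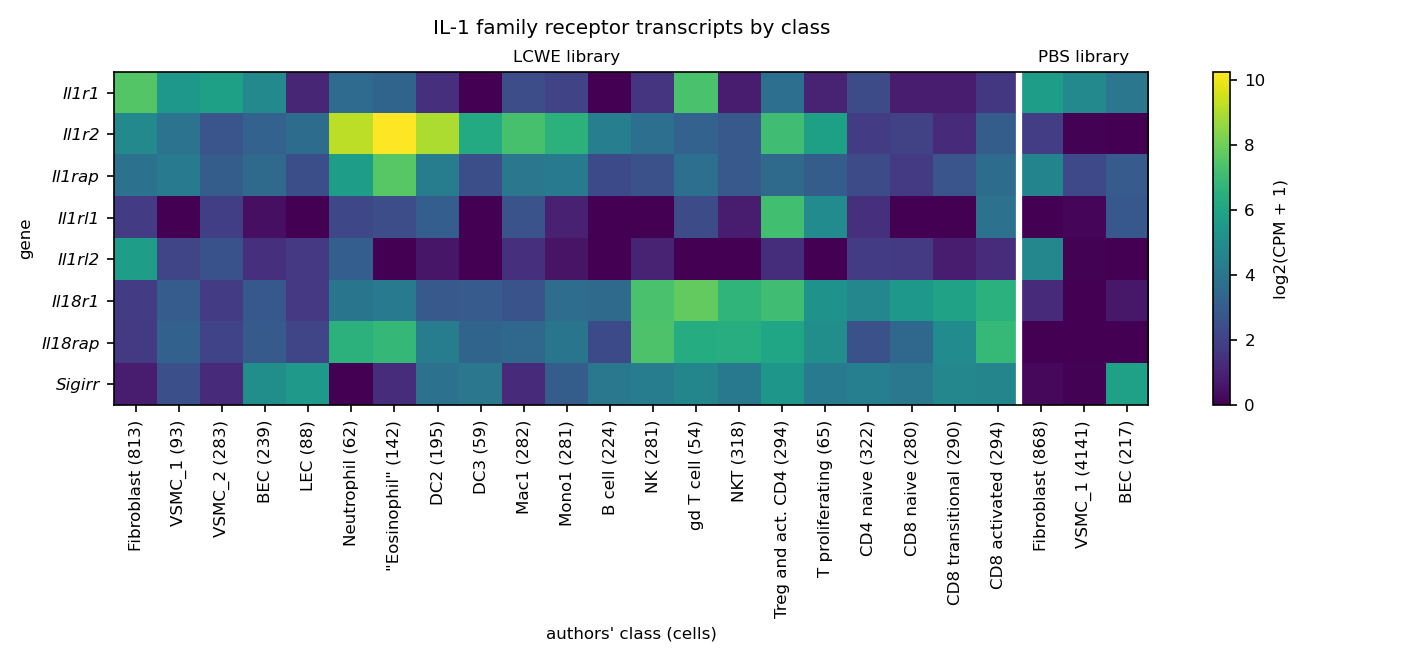
Colour gives log2(CPM + 1) of each gene (down) in each class of at least 50 cells (across, cells in brackets), with the LCWE library on the left and the PBS library on the right. Among the LCWE classes, Il1r2 reaches its highest level in the class named eosinophil (1205 CPM), Il1r1 in fibroblasts (180.6 CPM), and Sigirr in LEC (45.2 CPM). Sigirr in PBS BEC stands higher than in LEC, at 57.6 CPM.

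Il1r1, the signalling receptor of IL-1α and IL-1β, was a fibroblast transcript in the LCWE aorta. LCWE fibroblasts held 2.22 UMIs per cell (2.12 to 2.32; 180.6 CPM) and 72.8% of all Il1r1 UMIs of the library. VSMC_2 followed with 1.14 UMIs per cell (1.02 to 1.27), and gd T cells with 0.704 (0.498 to 0.966). VSMC_1 held 0.409 UMIs per cell (0.289 to 0.561) and BEC 0.339 (0.269 to 0.421). In UMIs per cell, fibroblasts and VSMC_2 stood apart from each other and from the classes after them, while the intervals of gd T cells, VSMC_1 and BEC overlapped in turn. Below BEC came neutrophils at 0.0968 and the class of regulatory and activated CD4 T cells at 0.0544 UMIs per cell, and B cells held 0 UMIs in 224 cells. LCWE gd T cells had a median total of 3767 UMIs and LCWE fibroblasts 11494, and by CPM gd T cells (158 CPM, 112 to 217) overlapped fibroblasts (172 to 189). By CPM VSMC_2 (55.6, 49.7 to 62.1) lay below gd T cells and overlapped VSMC_1 (43.5, 30.8 to 59.7). The proliferating VSMC_2 class, with 41 LCWE cells, held 3.15 UMIs per cell (2.63 to 3.74), beside a median total of 26038 UMIs. In the PBS library VSMC_1 held 0.356 (0.338 to 0.375) and fibroblasts 0.354 (0.315 to 0.396) UMIs per cell, which overlap, and 80.9% of the Il1r1 UMIs lay in VSMC_1. By CPM PBS fibroblasts (50.5) stood above PBS VSMC_1 (27.6).

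Among gd T cells, those with an Il1r1 UMI more often carried an Il17a UMI, the cytokine of their IL-17-producing kind. Il17a was found in 65.2% (42.7 to 83.6) of 23 cells with Il1r1 and in 38.7% (21.9 to 57.8) of 31 cells without it, intervals that overlap. These shares are of cells as deposited, whose median total was 4228 UMIs with Il1r1 and 3587 UMIs without it.

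In fibroblasts Il1r1 was 3.58-fold higher in the LCWE library by CPM (3.17 to 4.05), at 180.6 CPM in LCWE and 50.5 CPM in PBS fibroblasts. LCWE fibroblasts held more UMIs in all, with a median of 11494 against 6215 in PBS fibroblasts. After every cell was thinned to 1600 UMIs, 24.5% (21.6 to 27.6) of LCWE fibroblasts and 7.14% of PBS fibroblasts had an Il1r1 UMI, where 68.1% of LCWE and 25.1% of PBS fibroblasts had one as deposited. The share in B cells, taken as the level of free RNA, was 0 of 224 LCWE cells, with an upper bound of 1.63%, at a median depth of 2818 UMIs before thinning.

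The level within LCWE fibroblasts depended on a subset marked by Chl1, a cell adhesion gene. Of the LCWE fibroblasts 481 had a Chl1 UMI, against 0 of the 868 PBS fibroblasts. Chl1+ LCWE cells held 3.04 Il1r1 UMIs per cell (2.89 to 3.20; 209 CPM), LCWE cells without Chl1 held 1.03 (114 CPM), and PBS fibroblasts 0.354 (50.5 CPM). After thinning, Il1r1 was found in 28.7% of Chl1+ LCWE cells, 18.4% of LCWE cells without Chl1, and 7.14% of PBS fibroblasts. Without the Chl1+ cells the ratio of LCWE over PBS fibroblasts was 2.26 (1.93 to 2.64). Chl1+ cells were also the deeper ones, with a median of 14431 UMIs against 7502.5 in LCWE fibroblasts without Chl1.

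Il1rl2, the receptor of the IL-36 cytokines, was also a fibroblast transcript. LCWE fibroblasts held 0.642 UMIs per cell (0.588 to 0.700; 52.3 CPM) and 87.0% of the library's Il1rl2 UMIs. VSMC_2 held 0.102 UMIs per cell (0.0686 to 0.147), apart from fibroblasts, and 0 UMIs were found in B, gd T and NKT cells and in the class named eosinophil. PBS fibroblasts held 0.180 UMIs per cell (25.6 CPM) and 96.3% of the PBS library's Il1rl2 UMIs. The LCWE over PBS ratio in fibroblasts was 2.04 (1.70 to 2.45) by CPM, and 1.98 (1.57 to 2.49) without the Chl1+ cells. Unlike Il1r1, Il1rl2 hardly followed Chl1, with 53.0 CPM in Chl1+ and 50.7 CPM in other LCWE fibroblasts. After thinning, 7.75% of LCWE and 3.23% of PBS fibroblasts had an Il1rl2 UMI, where 38.0% of LCWE and 13.1% of PBS fibroblasts had one as deposited.

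Il1rl2 was found more often in fibroblasts that also had an Il1r1 UMI. In thinned PBS cells the share was 11.3% (4.66 to 21.9) with Il1r1 and 2.61% (1.62 to 3.96) without it. In thinned LCWE cells it was 10.6% (6.65 to 15.7) with Il1r1 and 6.84% (4.97 to 9.13) without it, and these intervals overlap. The starts of Il1rl2, higher in LCWE fibroblasts, and of Il1r2, the gene with the widest gap between the libraries, are shown because they held a match to the motifs below. The 300 bases around their RefSeq starts (250 before, 50 after; RefSeq, GRCm38.p6) were searched on both strands for GGAANTTCC, a pattern like NF-κB sites, for CACGTG, the E-box core, and for GATAAG, the core of GATA sites. These motifs were picked after the sequences had been read. GGAANTTCC occurs in 0.928% of 32544 RefSeq promoters of that length, CACGTG in 7.17% and GATAAG in 7.32%. Capitals below mark the matches, which do not overlap. The Il1rl2 window (chr1:40324339-40324638, plus strand) holds 1 GGAANTTCC, and the Il1r2 window (chr1:40085843-40086142, plus strand) holds 1 GGAANTTCC and 2 CACGTG. The Il1r2 window lies inside the gene as GENCODE places it, and the GENCODE start at chr1:40074079 was not searched.
Il1rl2: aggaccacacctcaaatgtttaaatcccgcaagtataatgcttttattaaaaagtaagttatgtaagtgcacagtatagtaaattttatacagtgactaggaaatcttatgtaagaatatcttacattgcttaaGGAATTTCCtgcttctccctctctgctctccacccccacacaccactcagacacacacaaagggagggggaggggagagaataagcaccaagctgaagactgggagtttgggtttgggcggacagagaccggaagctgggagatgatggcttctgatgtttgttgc
Il1r2: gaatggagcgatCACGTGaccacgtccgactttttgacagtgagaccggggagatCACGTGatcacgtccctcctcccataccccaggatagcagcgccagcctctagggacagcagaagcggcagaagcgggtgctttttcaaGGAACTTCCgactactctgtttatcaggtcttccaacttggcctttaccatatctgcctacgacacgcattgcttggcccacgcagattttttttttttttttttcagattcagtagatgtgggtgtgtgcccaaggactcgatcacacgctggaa
Of the 11 windows of 7 receptor genes, those of Il1r1, Il18r1 and Il1rap held 0 matches, and the window of Il18rap held 1 GGAANTTCC. A match describes letters in a window and not a site in use.

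Il1rl1, also called ST2, the receptor of IL-33, was a transcript of the class of regulatory and activated CD4 T cells in the LCWE aorta. This class held 0.616 UMIs per cell (0.529 to 0.712; 138 CPM) and 57.5% of the library's Il1rl1 UMIs. Proliferating T cells followed with 0.446 UMIs per cell (0.299 to 0.641), overlapping it per cell but apart by CPM, at 29.7 (19.9 to 42.7) against 138 (119 to 160), and the other classes lay far lower, such as DC2 at 0.0718 and Mac1 at 0.0532. NK cells, B cells and naive CD8 T cells held 0 UMIs. After thinning 11.9% of the regulatory and activated CD4 class and 0 of 224 B cells had an Il1rl1 UMI, where 21.4% of that class had one as deposited.

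Within the regulatory and activated CD4 class the transcript sat with Foxp3, the transcription factor of regulatory T cells. The 88 cells with a Foxp3 UMI held 1.33 Il1rl1 UMIs per cell (1.10 to 1.59), and the 206 cells without one held 0.311 (0.239 to 0.397). Of the 63 cells with an Il1rl1 UMI 65.1% had a Foxp3 UMI, against 20.3% of the 231 cells without Il1rl1. Gata3, a transcription factor of type 2 and ST2+ regulatory T cells, was found in 63.5% of cells with Il1rl1 and 35.1% of cells without it. Areg, which encodes the tissue-repair factor amphiregulin, was found in 49.2% of cells with Il1rl1 and 19.0% of cells without it. Among proliferating T cells, Foxp3 was found in 63.6% of 11 cells with Il1rl1 and 7.41% of 54 cells without it. After thinning, Il1rl1 was found in 25.0% of the class's cells with Foxp3 and 6.31% of those without it.

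Il1rl1 has a distal and a proximal start in RefSeq (GRCm38.p6), and the gene is known to be expressed from different starts in different cells. Both starts are shown because each window held a match to the motifs above, which were picked after reading the sequences. GATAAG occurs in 7.32% and GGAANTTCC in 0.928% of 32544 RefSeq promoters of that length. The distal window (chr1:40429320-40429619, plus strand) holds 2 GATAAG, and the proximal window (chr1:40439379-40439678, plus strand) holds 1 GGAANTTCC. Capitals mark these matches.
Il1rl1 distal: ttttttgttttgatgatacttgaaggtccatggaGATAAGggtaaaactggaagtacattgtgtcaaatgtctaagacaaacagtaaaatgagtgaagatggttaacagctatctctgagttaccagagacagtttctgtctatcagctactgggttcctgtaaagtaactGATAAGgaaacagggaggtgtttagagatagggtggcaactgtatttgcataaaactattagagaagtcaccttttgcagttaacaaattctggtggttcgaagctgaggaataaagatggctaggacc
Il1rl1 proximal: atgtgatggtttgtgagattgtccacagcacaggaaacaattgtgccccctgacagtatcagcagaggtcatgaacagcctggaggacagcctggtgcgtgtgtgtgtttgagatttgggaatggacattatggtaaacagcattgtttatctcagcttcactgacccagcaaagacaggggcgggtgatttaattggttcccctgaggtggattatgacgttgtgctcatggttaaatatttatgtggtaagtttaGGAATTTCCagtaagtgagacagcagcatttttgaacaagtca
UMIs near the 3′ end, summed per gene, do not tell which start was used, nor the soluble decoy form of ST2 from the membrane form.

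The PBS library held 40 Il1rl1 UMIs, in 12 cells, and 0 of these cells had a Foxp3 UMI. A pair of them held 13 of the UMIs and had at least 100 UMIs of mast cell markers each, although the authors placed 1 among regulatory and activated CD4 T cells and the other in VSMC_1. Another 3 cells, in BEC, held 10 UMIs and carried endothelial markers, and 2 of these also held Gata3 and Il5 UMIs, genes known from group 2 lymphocytes. A cell of the regulatory and activated CD4 class with 3 Il1rl1 UMIs held 10 Gata3 and 9 Il5 UMIs and none of a T cell marker, and both DC2 cells held 14 or 15 UMIs of Cd209a, a dendritic cell gene. Of the 12 cells 10 had no UMI of a T cell marker. PBS values of Il1rl1 by class rest on these few cells.

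Il18r1, the ligand-binding chain of the IL-18 receptor, was a lymphocyte transcript. gd T cells held 0.963 UMIs per cell (0.719 to 1.26; 216 CPM), apart from the regulatory and activated CD4 class at 0.599, though by CPM these overlapped. NK cells followed with 0.584 UMIs per cell (156 CPM), proliferating T cells with 0.554, NKT cells with 0.462 (102 CPM) and activated CD8 T cells with 0.442 (92.9 CPM). Along the CD8 classes the level was 0.196 UMIs per cell in naive, 0.293 in transitional and 0.442 in activated cells, and naive CD4 T cells held 0.0994. B cells held 0.0357 and fibroblasts 0.0308 UMIs per cell. In the regulatory and activated CD4 class Il18r1 was found in 38.6% of cells with Foxp3 and 42.7% of cells without it as deposited. After thinning it was found less often with Foxp3, in 13.6% of these cells against 30.1% of those without it. The 16 PBS NK cells held 0.875 Il18r1 UMIs per cell (195.4 CPM).

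Il18rap, the accessory chain of the IL-18 receptor, was spread over lymphocytes and granulocytes. Neutrophils held 0.839 UMIs per cell (0.626 to 1.10), NK cells 0.616 (0.527 to 0.715), activated CD8 T cells 0.554 and the class named eosinophil 0.542. By CPM NK cells came first with 164 CPM, activated CD8 T cells had 116 CPM, the class named eosinophil 113 CPM and neutrophils 94.7 CPM. After thinning 24.6% of NK cells and 11.3% of neutrophils had a UMI, where 42.7% of NK cells and 45.2% of neutrophils had one as deposited. Naive CD4 T cells held 0.0186 and B cells 0.0134 UMIs per cell. The class with the highest level thus depends on the scale, and for this gene the order is given on both.

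The 2 chains of the IL-18 receptor were not in proportion across classes. Il18r1 exceeded Il18rap in naive CD4 T cells by a ratio of UMIs of 5.33 (2.20 to 15.6), in naive CD8 T cells of 4.23 (2.28 to 8.44), in gd T cells of 2.74 (1.59 to 4.90) and in the regulatory and activated CD4 class of 2.05 (1.57 to 2.68). NK cells had a ratio of 0.948 (0.761 to 1.18) in LCWE and 0.933 (0.417 to 2.07) in PBS, and activated CD8 T cells 0.798 (0.628 to 1.01). Neutrophils, at 0.154 (0.0631 to 0.326), and the class named eosinophil, at 0.156 (0.0772 to 0.288), held mostly Il18rap. These are ratios of captured molecules, and how well each transcript is captured was not measured. Within NK cells the chains were found together: after thinning Il18rap was found in 45% (32.1 to 58.4) of 60 cells with Il18r1 and 19.0% (14.1 to 24.8) of 221 without.

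**Figure D2:**
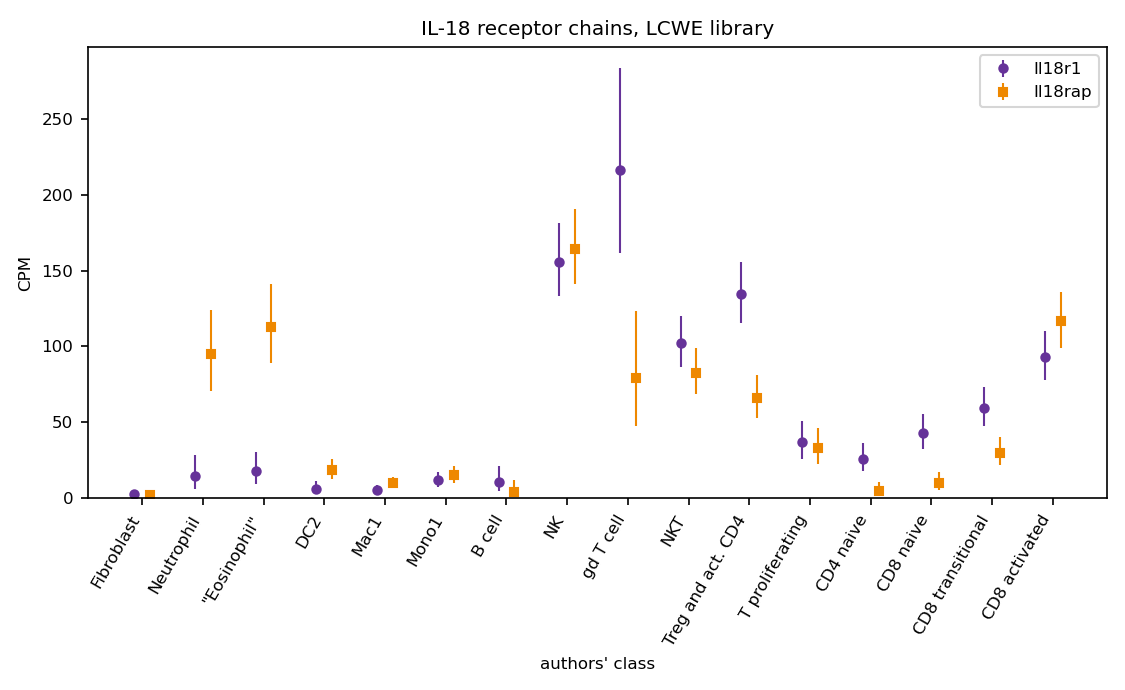
CPM of Il18r1 (ligand-binding chain) and Il18rap (accessory chain) in LCWE classes, with bars for the 95% counting intervals. Naive T cells, gd T cells and the regulatory and activated CD4 class lie on the Il18r1 side, and neutrophils (94.7 CPM of Il18rap) and the class named eosinophil on the Il18rap side.

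Il1r2, the decoy receptor of IL-1, was the most abundant of the genes in the LCWE library and nearly absent from the PBS library. The LCWE library held 3514 UMIs (83.1 CPM, 80.4 to 85.9) and the PBS library 26 UMIs (0.415 CPM, 0.271 to 0.609). In the LCWE library 2562 of the UMIs lay in the class named eosinophil, neutrophils, DC2 and Mac1. The class named eosinophil held 5.79 UMIs per cell (5.40 to 6.20; 1205 CPM), neutrophils 5.26 (4.70 to 5.86; 594 CPM) and DC2, a dendritic cell class, 4.92 (4.61 to 5.24; 505 CPM). These 3 overlapped their neighbours in order and stood apart from Mac1 at 1.61 (1.47 to 1.77). After thinning 76.1% of the class named eosinophil, 61.3% of neutrophils and 40.0% of DC2 had an Il1r2 UMI, against 2.23% of B cells, the measure of free RNA. As deposited the shares were 93.0%, 93.5% and 67.7%, against 4.02% of B cells. The PBS library had few such cells, with 1 cell named eosinophil, 5 neutrophils, 3 DC2 and 5 Mac1 cells. All 5 PBS neutrophils together held 5 Il1r2 UMIs.

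Among T cells Il1r2 lay in the regulatory and activated CD4 class, at 0.602 UMIs per cell (0.517 to 0.698), and in proliferating T cells, at 0.831 (0.624 to 1.08). In the first of these, the cells with Foxp3 held 0.864 UMIs per cell and the cells without it 0.490. Of the 46 cells with an Il1r2 UMI 58.7% had Foxp3 and 65.2% had Il2ra, the high-affinity chain of the IL-2 receptor, against 24.6% and 24.6% of the 248 cells without one. In proliferating T cells Foxp3 was found in 64.3% of 14 cells with Il1r2 and 3.92% of 51 without it. In DC2 the 132 cells with Il1r2 more often carried Ccr7, the homing receptor of migrating dendritic cells, at 33.3% (25.4 to 42.1) against 12.7% (5.65 to 23.5) of 63 cells without it. Clec9a, a marker of cross-presenting dendritic cells, ran the other way, at 5.30% of DC2 with Il1r2 and 22.2% of DC2 without it. These shares are of cells as deposited. DC2 with Il1r2 had a median of 9515 UMIs and DC2 without it 7802, and the cells of the regulatory and activated CD4 class 6959.5 UMIs with Il1r2 and 3460.5 UMIs without it. Proliferating T cells had a median of 19718.5 UMIs with Il1r2 and 11965 UMIs without it.

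The balance of decoy and signalling receptor differed widely between classes. Over the LCWE library there were 1.42 Il1r2 UMIs per Il1r1 UMI (1.35 to 1.49), and over the PBS library 0.0143 (0.0093 to 0.0210). DC2 held 319.7 Il1r2 UMIs per Il1r1 UMI (109 to 1553), the class named eosinophil 137, neutrophils 54.3, Mac1 35.0 and the regulatory and activated CD4 class 11.1 (6.63 to 19.8). Fibroblasts were on the other side, with 0.151 (0.133 to 0.172) in LCWE and 0.0521 (0.0294 to 0.086) in PBS. Within LCWE fibroblasts, Il1r2 was found in 27.6% of cells with Il1r1 and 12.7% of cells without it as deposited, cells whose median totals were 13764 and 6358 UMIs, and in 4.02% and 2.44% after thinning, where the intervals overlap. gd T cells held 2 Il1r2 UMIs and 38 Il1r1 UMIs, a ratio of 0.0526 as counted (0.00615 to 0.204), or 0.0789 with the Il1r2 sum raised to 3.

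**Figure D3:**
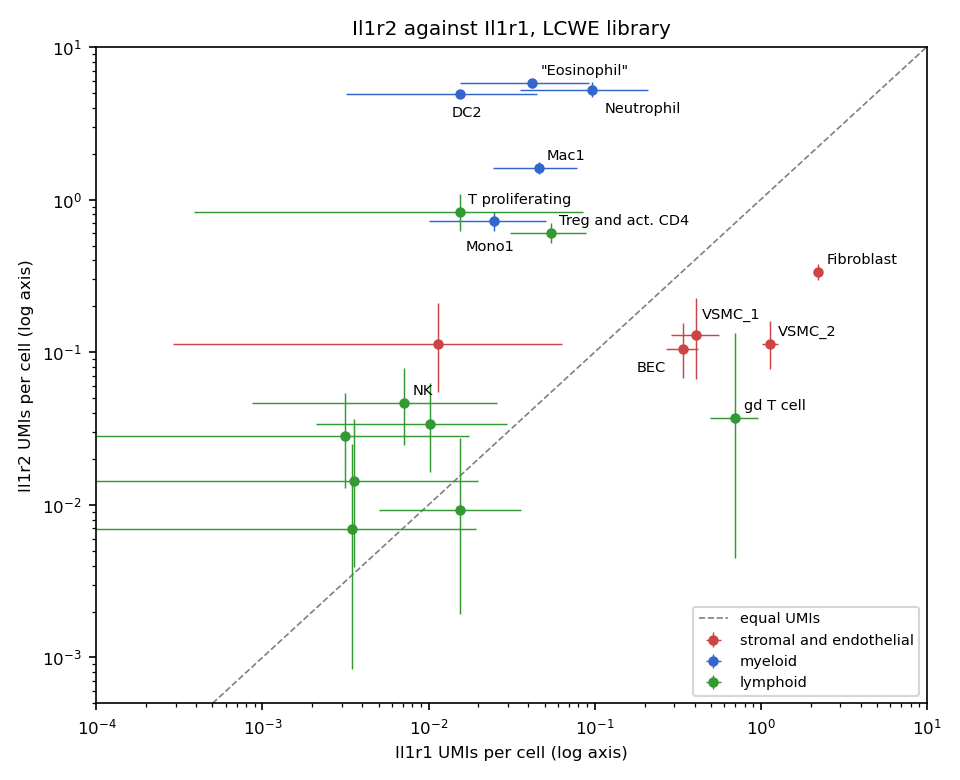
UMIs per cell of Il1r2 against Il1r1 in LCWE classes, both axes on a log scale, with 95% counting intervals and a dashed line where the 2 are equal. Myeloid classes and the regulatory and activated CD4 class lie on the Il1r2 side of the line, and fibroblasts (2.22 Il1r1 and 0.336 Il1r2 UMIs per cell), VSMC, BEC and gd T cells on the Il1r1 side; B cells and DC3 are not drawn, as 1 of the genes had 0 UMIs.

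Low levels of Il1r2 in other classes were read against neutrophil RNA in the same class. Granulocytes (neutrophils and the class named eosinophil together) held 8.03 Il1r2 UMIs (7.57 to 8.51) per 1000 UMIs of S100a8 and S100a9. This joins unlike values, 25.1 (23.4 to 26.9) in the class named eosinophil and 2.96 (2.65 to 3.30) in neutrophils. DC2, also rich in Il1r2, held 2465 per 1000, so the granulocyte value does not stand for free RNA of all classes. Fibroblasts held 83.1 (73.6 to 93.6), B cells 68.8 (38.5 to 113), VSMC_1 56.9 and BEC 47.3 per 1000, all above the granulocyte value. The regulatory and activated CD4 class held 1255 and Mac1 917 per 1000, far above B cells. Il1r2 in LCWE fibroblasts (0.336 UMIs per cell, 2.83% of thinned cells) thus stood at the B cell ratio, beside a share of 2.23% (0.729 to 5.13) in thinned B cells. Other lymphocyte classes lay lower than fibroblasts, with 16.9 (3.48 to 49.3) per 1000 in naive CD4 T cells, 12.2 (1.48 to 44.1) in transitional CD8 T cells and 27.2 (7.41 to 69.7) in naive CD8 T cells. After thinning 0.311% (up to 1.72%) of naive CD4 T cells had an Il1r2 UMI, against 2.83% (1.80 to 4.21) of fibroblasts. Whether the fibroblast UMIs are free RNA thus has a different answer by the class they are set against, and was not settled.

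**Figure D4:**
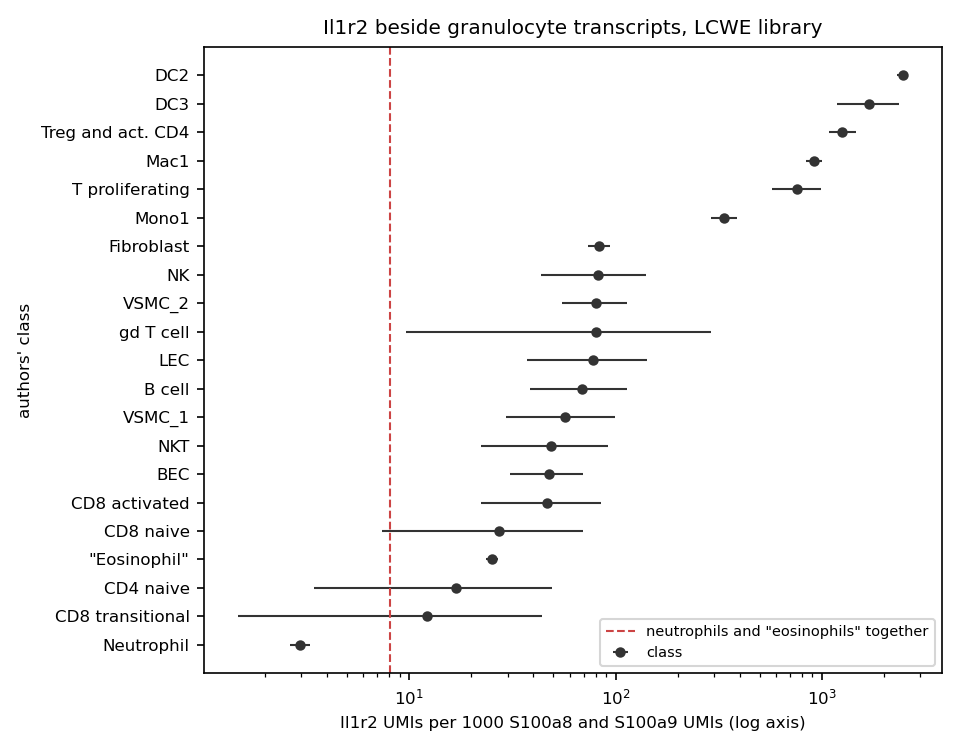
Il1r2 UMIs per 1000 UMIs of S100a8 and S100a9 in each LCWE class, on a log scale, with 95% counting intervals and a dashed line at the value of neutrophils and the class named eosinophil together (8.03). Fibroblasts (83.1) and B cells (68.8) overlap, and the regulatory and activated CD4 class (1255) and Mac1 (917) lie above them.

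Sigirr, the inhibitory member, had its highest level per cell in endothelial cells, while lymphocytes held more of its UMIs in the LCWE library. LEC held 0.455 UMIs per cell (0.325 to 0.619; 45.2 CPM) and BEC 0.406 (0.329 to 0.495; 32.6 CPM) in the LCWE library, and these overlapped. Proliferating T cells followed at 0.262 and the regulatory and activated CD4 class at 0.187 (42.0 CPM), which came first once cells were thinned, at 8.50% of cells, against 5.68% of LEC and 2.23% of B cells. As deposited the shares were 16.3% of that class, 36.4% of LEC and 4.91% of B cells. Fibroblasts held 0.00861 UMIs per cell, Mac1 0.0142, and neutrophils 0. In the PBS library BEC held 0.442 UMIs per cell (57.6 CPM), and 89.0% of the Sigirr UMIs lay in endothelial cells. In the LCWE library endothelial cells held 28.9% and NK, innate lymphoid and T cells 50.4% of the Sigirr UMIs. Sigirr was 1.77-fold lower in LCWE BEC by CPM (1.32 to 2.37), which does not pass the 2-fold mark used here. After thinning 5.02% of LCWE BEC and 9.22% of PBS BEC had a Sigirr UMI.

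Il1rap, the accessory chain shared by the IL-1, IL-33 and IL-36 receptors, was the most evenly spread of the genes outside granulocytes. The class named eosinophil held 0.915 UMIs per cell (0.765 to 1.09; 191 CPM) and neutrophils 0.468 (52.8 CPM). Then came DC2 at 0.185, VSMC_1 at 0.172, Mac1 at 0.167, fibroblasts at 0.162, VSMC_2 at 0.145, Mono1 (a monocyte class) at 0.139 and BEC at 0.134 UMIs per cell. B cells held 0.0134. In fibroblasts Il1rap went the other way from Il1r1: it was 1.79-fold lower in LCWE fibroblasts (1.40 to 2.28), at 13.2 CPM against 23.7 CPM in PBS fibroblasts, short of the 2-fold mark. There were 0.0732 Il1rap UMIs per Il1r1 UMI (0.0609 to 0.0874) in LCWE fibroblasts and 0.469 (0.382 to 0.574) in PBS fibroblasts. In UMIs per cell Il1rap was at 0.162 in LCWE and 0.166 in PBS fibroblasts, beside median totals of 11494 UMIs in LCWE and 6215 UMIs in PBS fibroblasts.

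For every class that reached 50 cells in each library, a gene was called at a CPM ratio of 2 or more among genes with at least 20 UMIs over both libraries. In fibroblasts 5 of 7 measured receptor genes were higher in LCWE, against 10.4% of 12357 measured genes, and 0 were lower, against 7.31%. Beside Il1r1 and Il1rl2 these were Il1r2 at 10.4-fold (6.29 to 18.5), with the free RNA values given above, Il1rl1 with 25 LCWE and 0 PBS UMIs, at least 5.08-fold higher against a floor of 3 UMIs (counting interval down to 3.83), and Il18rap with 23 LCWE and 0 PBS UMIs, at least 4.67-fold higher (down to 3.50). Il1rl1 and Il18rap reached 20 UMIs through LCWE cells alone. The minimum and the floor thus fixed their calls in advance, as for any measured gene with 0 PBS UMIs here. Of the 25 Il1rl1 UMIs 24 lay in Chl1+ cells. LCWE fibroblasts held 0.0283 Il18rap UMIs per cell (0.0179 to 0.0424) and LCWE B cells 0.0134 (0.00276 to 0.0391), which overlap. In thinned cells 3 receptor genes were higher, and Il18rap fell short of the mark with a log2 ratio of 0.83. The median log2 ratio of the measured receptor genes was 1.84, against 0.04 for all measured genes. Without Chl1+ cells 2 of 4 measured receptor genes were higher, against 6.48% of all, and 0 lower, against 5.26%. Beside these results stand markers of other cells: LCWE fibroblasts held 4.46 UMIs per cell of neutrophil markers (5 of 6 detected, Ly6g at 0) and 0.197 of T cell markers, against 0.0161 (2 of 6 detected) and 0.0115 in PBS fibroblasts, and their part in the results for Il1r2 and Il18rap was not tested.

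In BEC 1 of 4 measured receptor genes was higher in LCWE, against 11.5% of 10319 genes, and 0 were lower, against 6.36%. That gene was Il1r2, with 25 LCWE and 0 PBS UMIs, at least 4.67-fold higher (down to 3.52), beside neutrophil markers at 2.36 UMIs per cell in LCWE BEC (6 of 6 detected) and 0.0507 in PBS BEC (3 of 6), whose part was not tested. Il1r1 stood at 27.2 CPM in LCWE BEC and 15.6 CPM in PBS BEC, a ratio of 1.75 (1.11 to 2.83) short of the mark, or 0.80 on the log2 scale. In thinned cells the log2 value was 2.18, but it rests on fewer than 20 UMIs over both libraries and was not called. Over all endothelial cells 3 of 6 were higher, against 10.2% of 10925 genes, and 0 were lower, against 5.66%. These were Il1r2 (35 LCWE and 0 PBS UMIs), Il18rap (22 LCWE and 0 PBS UMIs) and Il18r1 (20 LCWE UMIs and 1 PBS UMI, a ratio of 3.54 with the PBS sum raised to 3, and of 10.6 as counted, with an interval of 1.70 to 439.8). Each gene called in BEC and in all endothelial cells reached 20 UMIs through LCWE cells alone. The minimum and the floor thus fixed these calls in advance. Beside the IL-18 receptor chains, T cell markers stood at 0.908 UMIs per cell in LCWE BEC and 0.0369 in PBS BEC, and their part was not tested. Without the highest doublet scores, and in thinned cells, 0 of the receptor genes that still held 20 UMIs were higher in BEC or in all endothelial cells. In VSMC_1 1 of 2 was higher, against 20.5% of 12817 genes (12.4% where the floor is applied to the lower library only), and 0 were lower, against 3.6%. That gene was Il1rap, with 18.3 CPM (16 UMIs) in LCWE and 3.83 CPM (205 UMIs) in PBS VSMC_1, a ratio of 4.78 (2.68 to 7.94), and 0.80 on the log2 scale, short of the mark, without the 5% of cells with the highest doublet score. Il1r1 in VSMC_1 stood at 43.5 CPM in LCWE and 27.6 CPM in PBS, a ratio of 1.58 (1.11 to 2.18). LCWE VSMC_1 cells held 2.49 UMIs per cell of neutrophil markers (5 of 6 detected) and PBS VSMC_1 cells 0.0367 (5 of 6), and their part in the Il1rap value was not tested.

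In the broad class of NK, innate lymphoid and T cells 1 of 7 measured receptor genes was higher in LCWE, against 3.28% of 10602 genes, and 0 were lower, against 16.4% (7.97% where the floor is applied to the lower library only). The IL-18 receptor chains showed no difference beyond counting error: Il18r1 stood at 84.5 CPM in 2198 LCWE cells and 88.5 CPM in 75 PBS cells, a ratio of 0.954 (0.684 to 1.37), and Il18rap at 63.0 CPM in LCWE and 83.6 CPM in PBS, a ratio of 0.753 (0.533 to 1.10). Differences within these intervals cannot be seen with 75 PBS cells. Il1r2, the gene that was higher, held 274 UMIs in LCWE and 0 in PBS, at least 3.58-fold higher (down to 2.89), a call that ends in thinned cells. Neutrophil markers stood at 0.657 UMIs per cell in these LCWE cells and 0.04 in the PBS cells, and mast cell markers at 0.0883 in LCWE and 16.4 in PBS cells, and their part was not tested. Of the 1233 mast cell marker UMIs in the PBS cells, 1205 lay in 1 cell of the regulatory and activated CD4 class. The class mixes kinds of lymphocyte that the libraries hold in different shares.

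**Figure D5:**
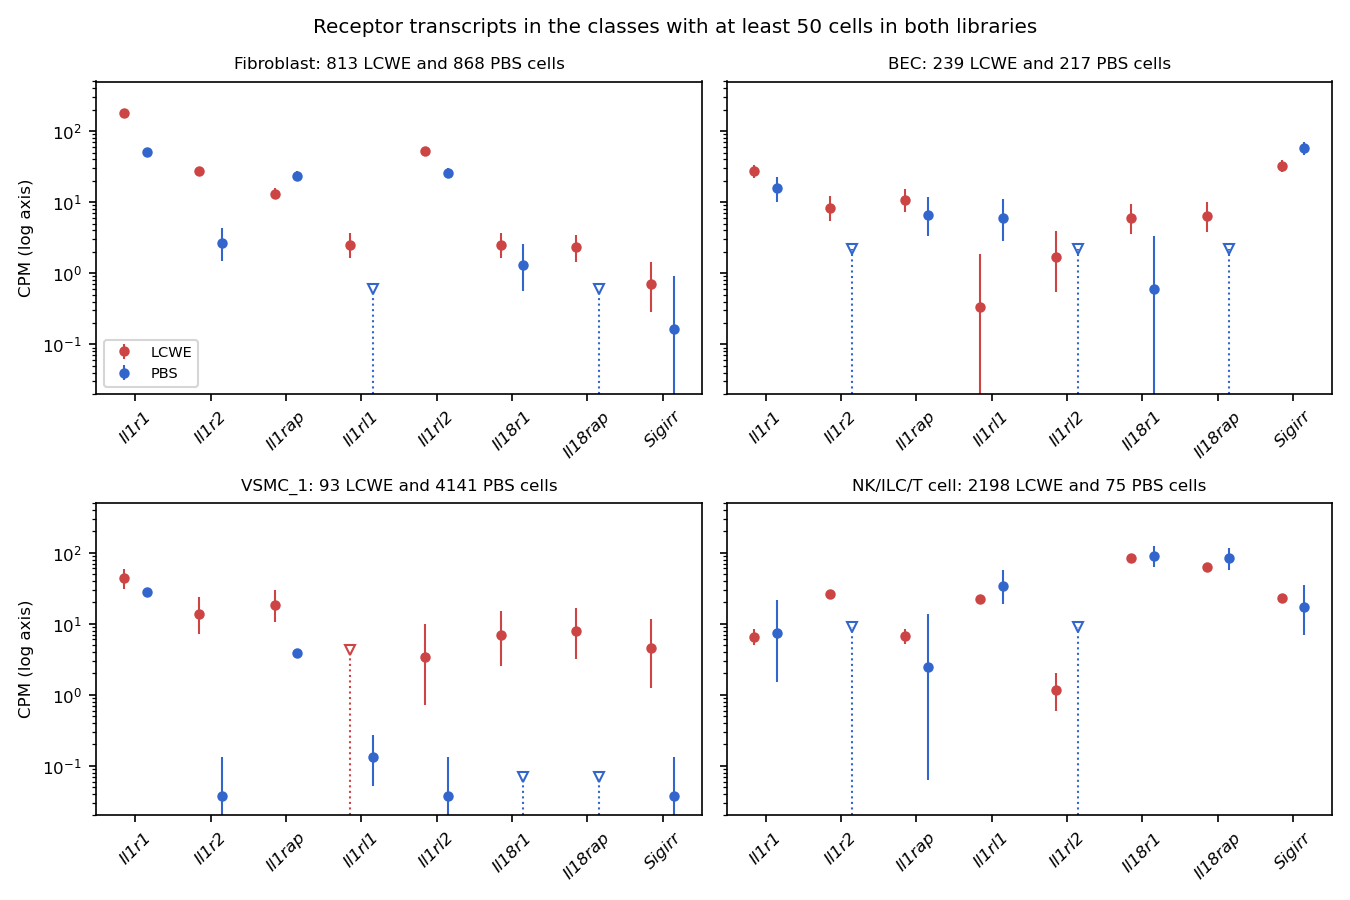
CPM of the genes in the LCWE and the PBS library, for fibroblasts, BEC, VSMC_1 and NK, innate lymphoid and T cells, on a log scale with 95% counting intervals, and open triangles at the upper bound where 0 UMIs were found. In fibroblasts Il1r1 (180.6 CPM in LCWE, 50.5 CPM in PBS) and Il1rl2 (52.3 CPM in LCWE, 25.6 CPM in PBS) are apart.

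Genes that act with the receptors were read from 3 lists. In fibroblasts 2 of 18 signalling genes were higher in LCWE, a share near the 10.4% of all genes, and 0 lower, with a median log2 ratio of 0.05 beside 0.04 for all genes. The 2 were Irak3, an inhibitor of the pathway, at 70.4 CPM in LCWE and 27.8 CPM in PBS (2.14 to 3.02 for the ratio), and Irak4, its first kinase, at 16.1 CPM in LCWE and 6.25 CPM in PBS. The kinase Irak1 stood at 70.6 CPM in LCWE and 79.2 CPM in PBS, and Nfkb1 at 219.7 CPM in LCWE and 242.8 CPM in PBS. Of 13 known target genes 5 were higher and 0 lower, with a median of 0.60. Saa3, an acute-phase gene, had 15585 UMIs in LCWE fibroblasts and 1 in PBS fibroblasts, and the chemokine Cxcl2 stood at 433.1 CPM in LCWE and 59.8 CPM in PBS. Lcn2, an iron-binding antibacterial gene, stood at 299.6 CPM in LCWE and 0.657 CPM in PBS, and Tnfaip3 at 66.0 CPM in LCWE and 28.3 CPM in PBS. Other abundant targets had lower values in LCWE fibroblasts, short of the mark and outside the naming rule: Icam1, an adhesion molecule, was 1.96-fold lower, Ptgs2, a prostaglandin synthase, 1.69-fold lower and Il6 1.52-fold lower. Of 5 measured ligands and antagonists 4 were higher and 0 lower, with a median of 2.56. Il33, the ligand of Il1rl1, stood at 562.6 CPM in LCWE and 95.2 CPM in PBS fibroblasts, a ratio of 5.91 (5.43 to 6.45). Il1rn, the IL-1 receptor antagonist, had 141 UMIs in LCWE and 1 in PBS fibroblasts, and Il18bp, the binding protein of IL-18, stood at 11.1 CPM in LCWE and 2.63 CPM in PBS. Il1b had 1108 UMIs in LCWE and 0 in PBS fibroblasts, beside neutrophil markers (above) and macrophage markers at 0.708 UMIs per cell in LCWE and 0.00230 in PBS fibroblasts, whose part was not tested.

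In BEC 0 of 18 signalling genes passed the mark in either direction, 7 of 13 targets were higher and 0 lower (median log2 ratio 1.44, beside 0.06 for all genes), and 2 of 3 measured ligands were higher. Of these, Saa3 (27 LCWE and 0 PBS UMIs), Csf3 (39 and 0), Ccl2 (52 and 1) and Il33 (24 and 1) reached 20 UMIs through LCWE cells alone. The minimum and the floor thus fixed their calls in advance. Il6 (87 and 5) and Lcn2 (80 and 6) also had few PBS UMIs. Of all measured BEC genes 11.5% were higher and 6.36% lower. LCWE BEC also held red cell markers at 49.9 and macrophage markers at 0.305 UMIs per cell, against 0.419 and 0 in PBS BEC. The part of these markers was not tested. Il6 stood at 29.3 CPM in LCWE BEC, 9.75-fold the level in PBS BEC, and Tnfaip3, an inhibitor of NF-κB, at 96.2 CPM in LCWE and 35.4 CPM in PBS BEC. Adhesion molecules Icam1 and Vcam1, also outside the naming rule, had lower values in LCWE BEC, by 1.69-fold and 1.89-fold, short of the mark. In VSMC_1 4 of 18 signalling genes were higher, a share near the 20.5% of all genes (12.4% with the floor in the lower library only). The 1 lower, against 3.6% of all genes, was Tab1, with 3 LCWE UMIs and a ratio interval of 0.0940 to 1.35. Of the measured targets 12 of 12 were higher, with a median of 4.72 beside 0.12 for all genes. Among these, Saa3 (38 LCWE and 0 PBS UMIs) and Lcn2 (401 and 11) reached 20 UMIs through LCWE cells alone. The minimum and the floor thus fixed their calls in advance. LCWE VSMC_1 cells also held macrophage markers at 0.634, T cell markers at 1.03 and red cell markers at 10.2 UMIs per cell, against 0.00217, 0.00386 and 0.440 in PBS VSMC_1 cells, beside the neutrophil markers above, and their part was not tested. Myd88, the adaptor of the receptors, stood at 42.3 CPM in LCWE and 15.5 CPM in PBS VSMC_1. Irak3, outside the naming rule, stood at 9.15 CPM in LCWE and 1.98 CPM in PBS VSMC_1, on 8 LCWE UMIs (1.94 to 9.43 for the ratio). Nfkbia, which encodes an inhibitor of NF-κB, stood at 407.4 CPM in LCWE and 109.3 CPM in PBS VSMC_1, and the chemokine Cxcl1 at 315.8 CPM in LCWE and 15.6 CPM in PBS VSMC_1. These counts carry no test, and the lists were chosen with earlier results known.

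The genes most like each receptor across the 21 LCWE classes were found by Pearson's r of log2(CPM + 1) over 11855 genes, as a description, since classes share 1 library. Il1r2 was most like Slc2a6 (0.92) and Il1b (0.90), the gene of the ligand that it binds. Il1rl1 was most like Foxp3 (0.86), and Il18r1 most like Ptpn22 (0.94) and Zap70 (0.94), both T cell signalling genes. Il1r1 was most like Zbtb7c (0.89) and Adam12 (0.86), and Il1rl2 most like Sobp (0.93) and Ptges (0.91), which encodes a prostaglandin E synthase. Il1rap was most like Rab7 (0.90), Il18rap most like Ppp1r18 (0.89) and Sigirr most like Nipsnap1 (0.88). Among the receptor genes, Il18r1 and Il18rap had r = 0.78, Il1r2 and Il1rap 0.75, and Il1r1 and Il1rl2 0.57, while Il1rap and Sigirr had r = -0.61.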

How the data were processed

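Single cells of the abdominal aorta were captured with 10x Genomics Single Cell 3′ V3 chemistry, 1 library per group. Cell Ranger 3.0.2 and mm10 are named per the submitters' processing notes. The authors deposited raw UMI counts per gene and cell, without normalization, and a table of 10477 cells with their class, the percent of UMIs from mitochondrial genes and a doublet score. The tool behind the deposited score, the annotation and the use of strand are not given in the sources used here. No listed cell carries the authors' doublet or dead call, and no doublet caller was run; leaving out the 5% of cells with the highest deposited score was an alternative.

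UMIs were summed per class and library with Python 3.11.15, NumPy 2.4.6, SciPy 1.17.1, pandas 2.3.3 and Matplotlib 3.10.9. Levels have exact Poisson intervals, ratios exact conditional binomial intervals and shares of cells Clopper-Pearson intervals, all at 95%. Sums under 3 UMIs were raised to 3 in ratios, except where a ratio is given as counted. Every cell was thinned to 1600 UMIs for shares, and no cell was shallower. Genes needed 20 UMIs to be measured and a 2-fold ratio to be called. The scripts were tested on simulated data. The 8 receptor genes are all named, with up to 4 genes per pathway list and class (the most UMIs, those past 2-fold first) and the 3 genes most like each receptor, among genes with at least 100 UMIs. Genes named to give a limit, and those marked as outside the rule, were added to these. The members and lists, and the Chl1 split, were chosen with earlier results of these data known. Other alternatives were no minimum of UMIs, a floor of 1 UMI, mean CPM over single cells, leaving out the cell with the most UMIs of a gene, totals without mitochondrial, ribosomal protein and haemoglobin genes, and leaving out cells over 10% mitochondrial UMIs; a floor in the lower library alone was added after the values were seen. A marker gene is not reported here.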

Additional observations from a re-analysis of the deposited data

Results flagged for a closer look

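Il1rap, the shared accessory chain, had LCWE over PBS ratios of opposite sign in a pair of classes, although the fibroblast value did not reach the 2-fold mark. Its log2 ratio of LCWE over PBS was 2.26 in VSMC_1 and -0.84 in fibroblasts. The difference between the classes was not tested, since each group is 1 library. In VSMC_1 the value rests on 16 UMIs in 93 LCWE cells, beside 205 UMIs in 4141 PBS cells. Without the 5% of cells with the highest doublet score the VSMC_1 value was 0.80, and under the other alternatives it lay between 1.83 and 2.29. In fibroblasts it lay between -0.87 and -0.40.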

How the results depend on the processing

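No paired analysis was possible because each group is 1 pooled library. Of 295 ratios recomputed under the alternatives, 272 kept their value within its interval, 22 moved and 1 reversed: Il1r2 in NK, innate lymphoid and T cells, 1.84 on the log2 scale, was -0.73 in thinned cells, where PBS sat at the floor.

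Counts of receptor genes at least 2-fold higher in LCWE changed as follows. In fibroblasts the 5 became 3 in thinned cells and 2 without Chl1+ cells. In BEC the 1 became 2 by mean CPM of single cells, 3 with no minimum of UMIs, and 0 in thinned cells and without the highest doublet scores. In all endothelial cells the 3 became 0 in thinned cells and without those scores, and 1 without the top cell. In VSMC_1 the 1 became 0 without those scores and 7 with no minimum. The 7 include Il1rl1, with 0 LCWE and 7 PBS UMIs, which only the floor of 3 UMIs in both libraries made higher. In NK, innate lymphoid and T cells the 1 became 0 in thinned cells and 2 with a floor of 1 UMI. Counts at least 2-fold lower, 0 at first, became 1 with no minimum in BEC, in endothelial cells and in NK, innate lymphoid and T cells, and 2 in the last of these when thinned. With no minimum, the gene lower in NK, innate lymphoid and T cells was Il1rl2. It held 12 LCWE and 0 PBS UMIs, so only the floor made it lower.

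Pathway counts moved mainly when thinned. In BEC higher signalling genes became 1, targets 3 and ligands 1. In VSMC_1 higher signalling genes became 7, lower ones 0, targets 6 and ligands 0, and ligands became 11 with no minimum. These 11 include Il1f5, Il1f6, Il1f8 and Il1f10, which held 0 UMIs in both libraries and were called through the floor alone. The causes of the other changes were not tested. Il1r1 in fibroblasts ranged between 1.17 and 1.94 on the log2 scale and Il1rl2 between 0.98 and 1.35. Single pools, 75 PBS lymphocytes and 93 LCWE VSMC_1 cells limit what can be seen.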
